A study of Mus musculus with 4 samples.

Results

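The immunoglobulin constant region genes and the J chain gene were examined in leukemia-initiating cells (LICs) of the MLL-AF9 mouse model of acute myeloid leukemia. The members are 10 of the 27179 genes in the deposited values, looked up by NCBI gene number. They are 7 heavy chain genes (Igha, Ighm, Ighd, Ighg1, Ighg2b, Ighg2c and Ighg3), 2 light chain genes (Igkc and Iglc1) and Jchain. They were chosen by their FPKM in these same 4 libraries, where they were already known to differ, so their differences between genotypes are given as a description: no p-value is printed for them, and the number of members past a threshold is set beside the share of all genes without being read as evidence.

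RNA of 4 libraries was sequenced, 2 labelled WT and 2 labelled CD274-null (genotype CD274-/-). All came from C57BL/6 mice with an age of 6 weeks in the labels, and from Mac-1+/c-Kit+ cells sorted from leukemic bone marrow. In all of them the leukemia was made by retroviral MLL-AF9, a fusion oncogene, in fetal liver progenitors that were transplanted into lethally irradiated recipients, and the deletion, constitutive in the CD274-null mice, was carried by the donor cells. CD274 (PD-L1) is a ligand of the inhibitory T cell receptor PD-1. According to the labels the RNA came from the sorted cells, whereas the RNA-seq methods name tissue as the input, so the input was not settled here. The labels and methods do not say whether the libraries came from separate mice, from which round of transplantation, or in which batch, so p-values measure the spread between libraries, which may be technical. The values are FPKM, read numbers of a gene set relative to its length and to all mapped reads of the library. The mapped reads that the values imply as their denominator, which are fewer than the methods' count of sequenced reads, numbered 11568565 in WT 1, 10181846 in WT 2, 8843737 in CD274-null 1 and 9957760 in CD274-null 2. Whole reads behind each FPKM were recovered from the values. These names give label and replicate number.

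The labels were first checked against Cd274 and against the sorted cell type. Cd274 had 2.80 FPKM in WT 1, 0.945 in WT 2, 1.43 in CD274-null 1 and 2.29 in CD274-null 2, from 118, 35, 46 and 83 reads, so the groups overlapped. A value per gene does not show which exons the reads came from. Cd274 did not separate the libraries by label, so the direction of every difference below is as the labels give it, and an exchange of labels was not tested. The markers of the sort and of MLL-AF9 leukemia were present in all 4 libraries, with Itgam (Mac-1) at 100.2 to 174 FPKM, Kit at 6.59 to 19.5 and Hoxa9 at 71.3 to 75.8. Mpo, the myeloperoxidase of immature myeloid cells, had 444 and 403 FPKM in WT 1 and WT 2 and 1427 and 925 in CD274-null 1 and CD274-null 2 (log2 difference 1.44, standard error 0.31; limma, Benjamini-Hochberg adjusted p = 0.251), so it was higher in the same libraries as the members, and its part in their levels was not tested. The libraries also differed within a label: 10 neutrophil genes summed to 42130 FPKM in WT 1 and 8443 in WT 2, and 7 erythroid genes to 55.6 in WT 2 and at most 4.80 in the other 3 libraries.

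An antibody is built from paired heavy and light chains, and the heavy chain constant region sets its isotype. Naive B cells carry IgM and IgD, and class switching replaces the mu constant region by a downstream one such as gamma or alpha. Plasma cells of the bone marrow and of mucosal tissues secrete antibody at a high rate, and J chain, a small polypeptide, links IgA into dimers and IgM into pentamers. IgG does not bind J chain. By the textbook account antibody genes are rearranged in the B cell lineage, and constant regions can also be transcribed without rearrangement, as germline transcripts.

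The coding ends of the secreted heavy chains are shown because they decide which isotypes J chain can join. The last 60 coding bases of the secreted forms of Igha and Ighm, which include the tailpiece, hold a cysteine codon just before the last codon, to which J chain is linked. Ighg2b, the IgG member with the most reads, is printed for contrast. The sequences were read from GENCODE transcripts on the minus strand of GRCm38, 5′ to 3′, without the stop codon, and capitals mark the cysteine codon.
Igha, chr12:113258771-113258830: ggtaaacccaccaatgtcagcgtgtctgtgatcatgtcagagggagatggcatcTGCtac
Ighm, chr12:113420870-113420929: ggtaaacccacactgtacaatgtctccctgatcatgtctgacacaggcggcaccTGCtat
Ighg2b, chr12:113306392-113306451: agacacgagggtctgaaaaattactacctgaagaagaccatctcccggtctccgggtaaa
Compared base by base from the coding end, without alignment, the Igha and Ighm ends shared 41 of 60 bases, and the Igha and Ighg2b ends 12 of 60. The Ighg2b end closes with ggtaaa, the bases that open the Igha and Ighm ends. Its positions are thus not the counterparts of theirs, and the 12 of 60 does not measure likeness. None of the 4 IgG members had a cysteine codon just before its own last codon.

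Igkc, the constant region of the kappa light chain, had the highest FPKM of the members in both libraries labelled CD274-null. This gene is a single exon on chr6:70726435-70726754, plus strand. Its FPKM was 8.64 in WT 1, 7.98 in WT 2, 214 in CD274-null 1 and 189 in CD274-null 2, from 32, 26, 605 and 603 reads. Both libraries labelled CD274-null were high, and the groups did not overlap. The mean was 8.31 ± 0.470 (SD, n = 2) in WT and 202 ± 17.4 (SD, n = 2) in CD274-null, a difference of 4.52 on the log2(FPKM + 0.5) scale (standard error 0.20, limma). In bulk RNA, fewer cells of a type and less RNA per cell cannot be told apart.

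Iglc1 (chr16:19061752-19062071, minus strand), a lambda constant region, was far lower than Igkc in every library. It had 0.270 FPKM in WT 1, 0 in WT 2, 8.83 in CD274-null 1 and 3.45 in CD274-null 2, from 1, 0, 25 and 11 reads. The groups did not overlap, but the WT values rest on 1 read in all. Kappa made up 97.0% of the light chain FPKM in WT 1, 100% in WT 2, 96.0% in CD274-null 1 (exact 95% binomial interval 94.2 to 97.4%, counting error only) and 98.2% in CD274-null 2 (96.8 to 99.1%). With 33 and 26 light chain reads in the WT libraries, a lambda share of up to 9.09% and 11.5% would still be within 3 reads. A difference in light chain class between the groups was not detectable at this depth. The other lambda genes followed the same order of groups: Iglc2 had 0, 0, 2.50 and 1.27 FPKM, and Iglc3 0, 0, 0.357 and 2.53, from 8 reads or fewer in any library.

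Igha, the alpha constant region that makes IgA, lies on chr12:113256204-113260236, minus strand. It had 5.08 FPKM in WT 1, 0 in WT 2, 114 in CD274-null 1 and 102 in CD274-null 2, from 72, 0, 1236 and 1242 reads. Both CD274-null values stood above both WT values, and the WT libraries themselves were unlike, with exact 95% Poisson intervals of 3.98 to 6.40 and of 0 to 0.296 FPKM. Its log2 difference of 6.02 (standard error 1.01, limma) moved between 4.28 without WT 2 and 7.76 without WT 1. In the ranking of all genes by FPKM, Igha stood at place 8939 in WT 1 and at places 689 and 820 in the libraries labelled CD274-null.

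Ighm, the mu constant region (chr12:113418826-113422730, minus strand), was the heavy chain with most reads in both WT libraries. It had 9.04 FPKM in WT 1, 14.1 in WT 2, 49.1 in CD274-null 1 and 162 in CD274-null 2, from 156, 214, 647 and 2407 reads. The groups did not overlap, but the libraries labelled CD274-null were far apart. Ighm was 3.30 times higher in CD274-null 2 than in CD274-null 1 (95% counting interval 3.03 to 3.61). The same ratio was 0.892 for Igha (0.824 to 0.966), 0.885 for Igkc (0.790 to 0.993) and 0.853 for Jchain (0.705 to 1.03). Its log2 difference of 2.93 (standard error 0.55, limma) was 2.07 without CD274-null 2 and 3.78 without CD274-null 1.

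The IgG constant regions, the gamma genes of the heavy chain locus, had 0 reads in WT 1 and in WT 2, 85 in CD274-null 1 and 83 in CD274-null 2. Ighg2b (chr12:113304314-113307933) had 5.92 and 3.29 FPKM in CD274-null 1 and CD274-null 2, from 64 and 40 reads. Against a floor of 3 reads over the WT group, it was at least 40.1-fold higher. Ighg2c (chr12:113287389-113288932) had 2.25 and 0.199 FPKM, from 20 and 2 reads, and was at least 8.48-fold higher by the same floor with both libraries pooled. That bound rests on CD274-null 1, since 2 reads are under the floor, and the log2 difference of 1.47 was 0.48 without that library. Ighg1 (chr12:113326541-113330523) was at 0 reads in CD274-null 1 and at 2.72 FPKM, 40 reads, in CD274-null 2, so the groups overlapped and the difference rests on that library. The length implied for Ighg1, 1478 bases, matches none of its annotated forms, so its reads may be off by a whole factor. That for Ighg2c, 1007 bases, matches neither its joined coding exons (1216) nor its shortest transcript (1111). The reads of Ighg2c and the bound drawn from them may thus be off as well. Ighg3 had 1 read in each library labelled CD274-null, under the floor. CD274-null 2 thus had less Ighg2b (0.555 times CD274-null 1, 95% counting interval 0.364 to 0.837) and less Ighg2c (0.0888 times, 0.0101 to 0.366), and more Ighg1. IgG genes are alike in sequence: 5.49% of the 50-base stretches of Ighg2c and 4.15% of those of Ighg2b also occur in another gene, mostly in each other, so a part of the reads of this pair is uncertain.

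Ighd, the delta constant region, is made with IgM by naive B cells. It had 0 reads in WT 1, 1 in WT 2, 4 in CD274-null 1 and 9 in CD274-null 2. The length implied for Ighd, 1008 bases, matches neither its joined coding exons (937) nor its shortest transcript (802), so these reads may be off by a whole factor. The groups did not overlap, at levels of at most 0.897 FPKM. Ighd was 0.261% and 0.331% of the heavy chain FPKM in the libraries labelled CD274-null. Ighe, the epsilon constant region, had 1 read, in CD274-null 2.

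Jchain, the joining chain of IgA and IgM, lies apart from the antibody loci on chr5:88519809-88527897, minus strand. It had 0.370 FPKM in WT 1, 0.514 in WT 2, 12.3 in CD274-null 1 and 10.5 in CD274-null 2, from 9, 11, 228 and 219 reads. The libraries of one label were alike and the groups did not overlap. The mean was 0.442 ± 0.102 FPKM (SD, n = 2) in WT and 11.4 ± 1.27 (SD, n = 2) in CD274-null, a log2 difference of 3.65 (standard error 0.33, limma). A promoter or splice form cannot be read from these values, and the gene length behind the FPKM of Jchain, 2102 bases, exceeds its shortest annotated transcript of 1393 bases.

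**Figure D1:**
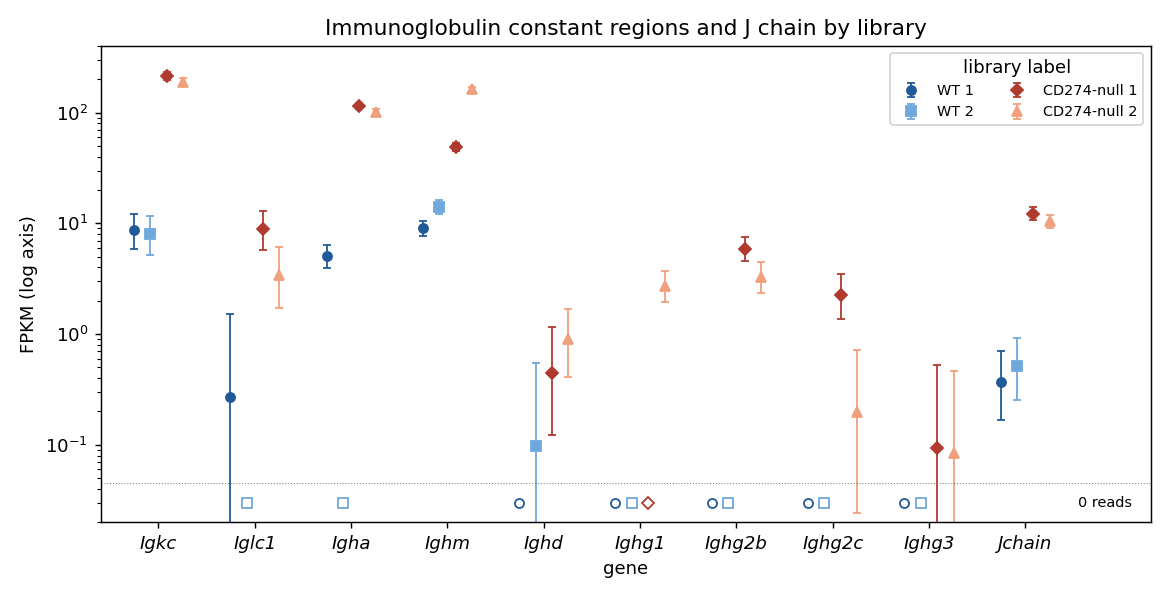
FPKM (log axis) of the 10 members in each of the 4 libraries, with exact Poisson 95% intervals of the recovered reads (counting error only); open symbols below the dotted line mark 0 reads. For each of Igkc, Igha and Jchain, CD274-null 2 lies slightly below CD274-null 1 (0.885, 0.892 and 0.853 times), while Ighm lies at 49.1 in CD274-null 1 and 162 in CD274-null 2.

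Over 13230 genes, those whose FPKM averaged 0.5 or more, limma with Benjamini-Hochberg adjustment called 10 genes higher in CD274-null at an adjusted p under 0.05, 0.0756% of those tested. Among them were 2 members, Igkc and Jchain; with either library labelled CD274-null left out, and with voom on recovered reads, no member and no gene was called. The call of Jchain was lost in 9 of 13 alternatives, among them quantile normalization, scaling to equal medians, no filter and a filter at a mean FPKM of 5. By the candidate rule of an unadjusted p under 0.01 and a fold above 1.5, 6 members were higher, Igkc, Igha, Ighm, Jchain, Iglc1 and Ighg2b, where 2.39% of all tested genes were higher by that rule. Tested were 8 members, since Ighd and Ighg3 were under the filter, and for 3 of them (Igha, Ighm and Igkc) the WT mean alone would have passed it. Of the 8, 7 had both CD274-null values above both WT values, an order that 25.6% of all tested genes showed. The median log2 difference was 3.30 over the tested members, 3.80 with Ighg1, Ighg2b and Ighg2c at their lower bounds, and 0.01 over all genes. These counts restate how the members were chosen. With 2 libraries per group, a two-sided exact permutation test of a single value has 6 orders and cannot go below a p of 2 in 6.

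The make-up of the heavy chains differed between libraries of one label as well as between labels. IgA was 36.0% of the summed heavy chain FPKM in WT 1, 0% in WT 2, 66.4% in CD274-null 1 and 37.6% in CD274-null 2. In reads, these shares were 31.6% (exact 95% interval 25.6 to 38.0%), 0% of 215 reads (0 to 1.70%), 62.7% (60.5 to 64.8%) and 33.2% (31.7 to 34.7%). Both CD274-null shares stood above both WT shares, but those of WT 1 and CD274-null 2 were close and their intervals overlapped. IgM made up most of the rest, with 64.0%, 99.3%, 28.6% and 59.8% of heavy chain FPKM. The IgG genes together had 0, 0, 8.26 and 6.29 FPKM of 14.1, 14.2, 172 and 271 for all heavy chains. The mean IgA share was 18.0% ± 25.4 in WT and 52.0% ± 20.4 in CD274-null (SD, n = 2 each), and no test was made.

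**Figure D2:**
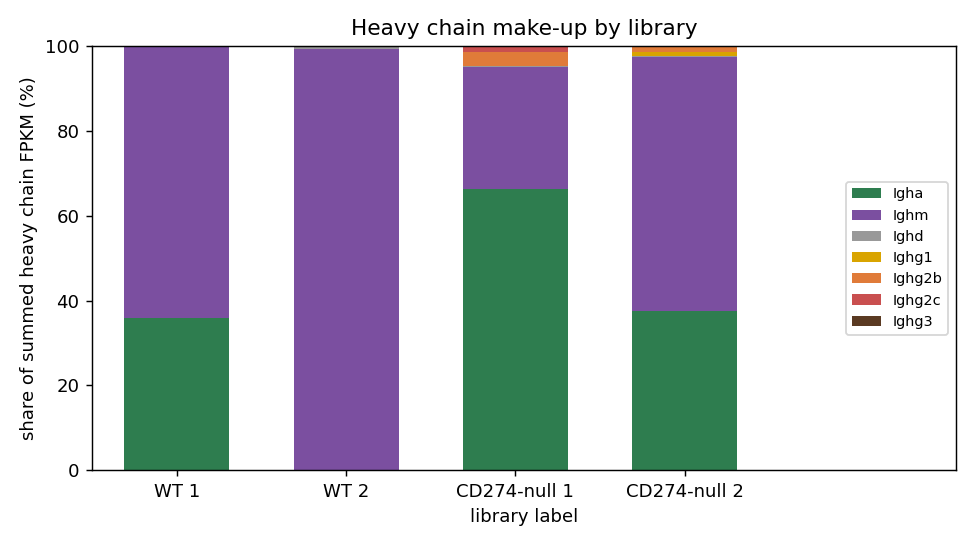
Share of each heavy chain gene in the summed heavy chain FPKM (%) in each of the 4 libraries; the bars start at 0 and add up to 100%. Igha takes 36.0% in WT 1 and 37.6% in CD274-null 2, against 0% in WT 2 and 66.4% in CD274-null 1.

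J chain was then set against the chains it joins. Jchain per Igha was 0.0729 in WT 1 (95% counting interval 0.0320 to 0.146), 0.108 in CD274-null 1 (0.0929 to 0.124) and 0.103 in CD274-null 2 (0.0886 to 0.119). The 3 intervals overlapped. WT 2 was different: it had 11 reads of Jchain and 0 of Igha, a ratio of at least 2.14 by the floor of 3 reads. Jchain per Ighm, the other chain that J chain joins, was 0.0409 in WT 1, 0.0365 in WT 2, 0.250 in CD274-null 1 (0.214 to 0.291) and 0.0645 in CD274-null 2 (0.0559 to 0.0741). CD274-null 1 was the highest there, with an interval apart from the other 3. Per Igha and Ighm together, Jchain was 0.0262, 0.0365, 0.0752 and 0.0396, with CD274-null 1 again the highest.

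Set against the kappa light chain, J chain varied less. Jchain per Igkc was 0.0428 in WT 1 (0.0180 to 0.0918), 0.0644 in WT 2 (0.0287 to 0.135), 0.0574 in CD274-null 1 (0.0490 to 0.0669) and 0.0553 in CD274-null 2 (0.0471 to 0.0646), so all 4 intervals overlapped although the mean FPKM of Igkc was 24.2 times and that of Jchain 25.7 times higher in CD274-null. The WT ratios rest on 9 and 11 reads of Jchain and leave a wide range. Igkc per Igha was 1.70 in WT 1 (1.09 to 2.61), 1.87 in CD274-null 1 (1.70 to 2.07) and 1.86 in CD274-null 2 (1.68 to 2.05), whereas WT 2 had 26 reads of Igkc and none of Igha. Igkc per Ighm varied more, from 0.956 and 0.566 in WT 1 and WT 2 to 4.36 and 1.17 in CD274-null 1 and CD274-null 2. Ighm per Igha was 1.78 in WT 1, at least 58.6 in WT 2, 0.430 in CD274-null 1 and 1.59 in CD274-null 2. Within the libraries labelled CD274-null, Igkc, Igha and Jchain thus had similar proportions and Ighm did not. A value per gene does not tell secreted and membrane-bound heavy chain transcripts apart. For Igha, the length behind the FPKM, 1225 bases, equals the joined coding exons of both its forms. This does not hold for each heavy chain: that of Ighg2c, 1007 bases, is below its joined coding exons of 1216. Rearranged and germline transcripts are not told apart either.

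**Figure D3:**
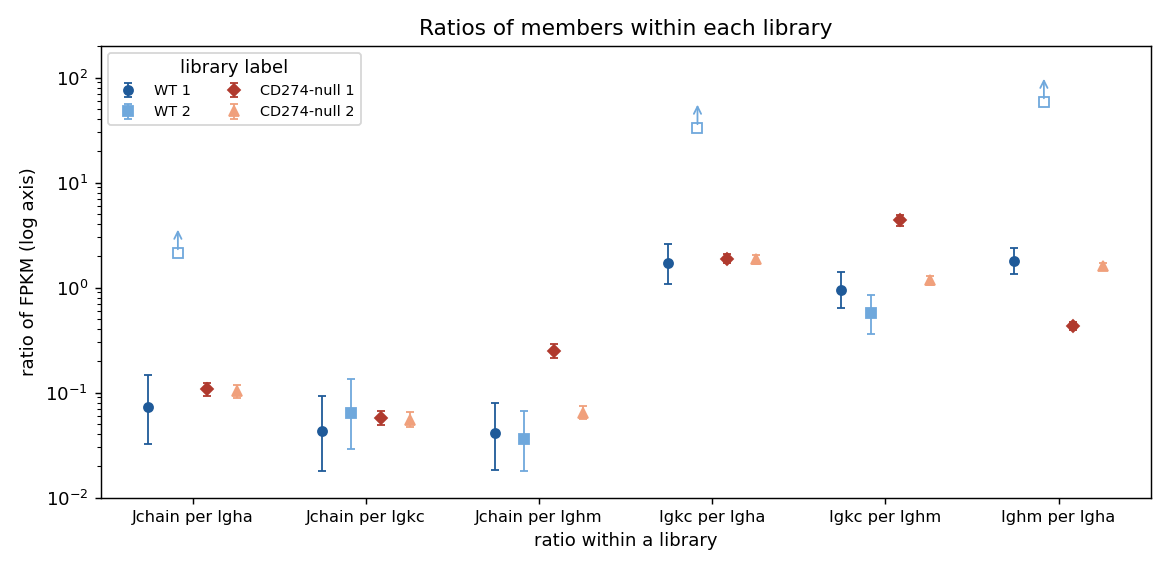
Ratios of FPKM between members within each library (log axis), with exact 95% intervals from the recovered reads (counting error only); open symbols with arrows are lower bounds where Igha had 0 reads. Jchain per Igkc overlaps in all 4 libraries, and the ratios with Ighm set CD274-null 1 apart from CD274-null 2.

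The genes whose levels ran most like those of the members were sought by distance of log2(FPKM + 0.5), centred on each gene's mean, over the 4 libraries. Such a ranking over 4 libraries mainly finds genes with the same difference between labels, and it has no test. Outside the antibody loci, the nearest to Jchain were Rps4l, Snord11, Cd74, Col19a1 and Apol8, and the same 5 genes were nearest to the median of the tested immunoglobulin members. Rps4l, a copy of a ribosomal protein gene, had 1.65, 1.25, 26.9 and 26.9 FPKM in WT 1, WT 2, CD274-null 1 and CD274-null 2, a distance of 0.43 from Jchain. Cd74, the invariant chain of MHC class II in antigen-presenting cells, had 3.18, 2.57, 35.6 and 21.4 FPKM. Col19a1 had 0.0246, 0.130, 3.29 and 5.45. Of the 20 nearest genes to Jchain, 9 were immunoglobulin genes.

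Ighm had other neighbours, sought after its values were seen. The nearest was Cd69, a surface receptor of activated lymphocytes that other blood cells also carry, with 10.7 FPKM in WT 1, 13.8 in WT 2, 54.1 in CD274-null 1 and 192 in CD274-null 2, at a distance of 0.22. Next was Tcf4, which encodes the E-box factor E2-2, with 1.74, 2.72, 7.40 and 23.6 FPKM. Its log2 difference was 2.36 (standard error 0.55, limma, Benjamini-Hochberg adjusted p = 0.266). Ighm per Tcf4 was 5.19 in WT 1 (95% counting interval 4.12 to 6.52), 5.18 in WT 2 (4.26 to 6.29), 6.63 in CD274-null 1 (5.89 to 7.46) and 6.88 in CD274-null 2 (6.47 to 7.31). Tcf4 was picked for its likeness to Ighm, so a narrow range of this ratio follows from the choice, and the intervals of WT 2 and CD274-null 2 did not overlap. Eps8l1, Dnajb13 and Siglecg followed, and Dnajb13 had 4.31, 4.55, 19.7 and 43.5 FPKM. The related E-box factors differed from Tcf4: Tcf3 was at 31.9 to 37.8 FPKM in all 4 libraries, and Tcf12 had 16.7, 20.9, 11.9 and 8.10.

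**Figure D4:**
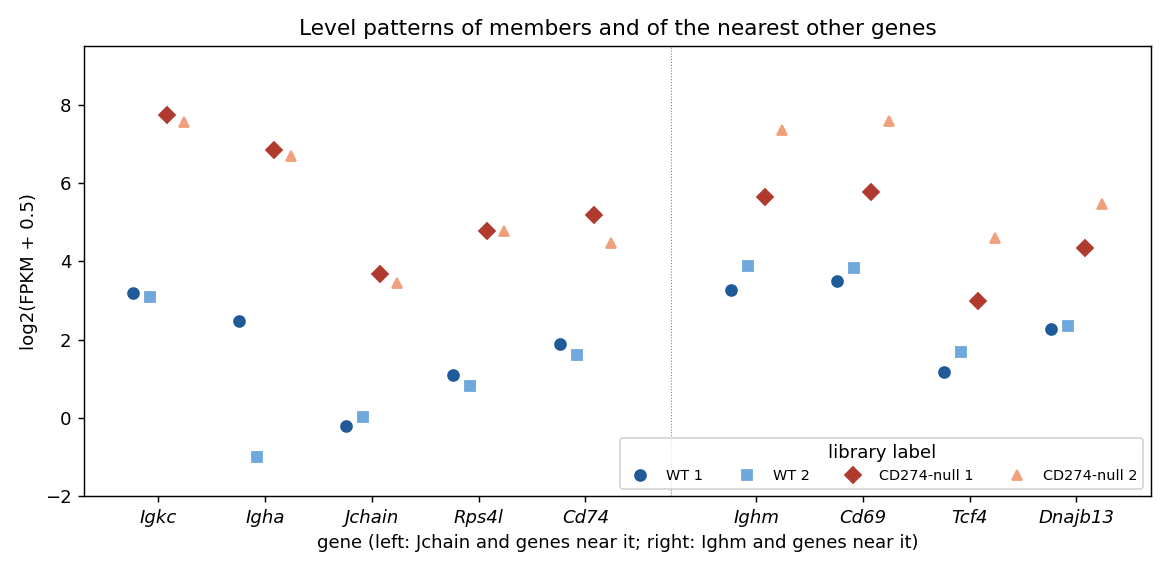
Levels as log2(FPKM + 0.5) in each of the 4 libraries for Igkc, Igha, Jchain and genes near Jchain (left), and for Ighm and genes near it (right). Of the genes plotted on the left, Cd74 has the widest gap between the libraries labelled CD274-null (35.6 and 21.4 FPKM), and on the right CD274-null 2 lies above CD274-null 1 for each gene.

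The cells that make antibody were looked for by their markers. Of 7 plasma cell genes, 1 passed the filter and was not called, and the list summed to 1.10 and 0.825 FPKM in WT 1 and WT 2 and to 3.25 and 3.31 in CD274-null 1 and CD274-null 2. Mzb1, a chaperone of plasma cells, had 0, 0, 8 and 3 reads, Sdc1 (CD138) 4, 7, 5 and 9, Tnfrsf17 (BCMA) 0, 1, 1 and 1, and Irf4, a factor needed for plasma cells, 3, 7, 14 and 49. Of 8 B cell genes, 1 passed the filter and was not called. The list summed to 12.9 FPKM in WT 1, 37.0 in WT 2, 37.2 in CD274-null 1 and 39.7 in CD274-null 2, nearly all of it Cd79b, with 12.8, 36.2, 35.6 and 37.4 FPKM. The defining markers were at the edge of detection: Pax5 had 0, 0, 1 and 5 reads, and Ms4a1 (CD20) 0, 0, 0 and 2. The summed plasma cell list was thus higher in both libraries labelled CD274-null, as the members were, and its part in their levels was not tested.

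Markers of other cells were summed in the same way. The 8 plasmacytoid dendritic cell genes, which include Tcf4, summed to 40.2, 40.6, 48.9 and 74.0 FPKM, mostly Bst2, and Siglech had 0, 0, 1 and 1 reads. The 11 T cell genes summed to 1.05, 2.50, 6.21 and 3.45, and the 6 NK cell genes to 0.155, 0.261, 0.907 and 0.554, both sums higher in the libraries labelled CD274-null. The T cell sum of CD274-null 2 stood above that of WT 2 only through Cd28. That gene had 1.40 of the 3.45 FPKM and 60 of the 88 reads in CD274-null 2, and 0.0910 FPKM in WT 2. The 10 macrophage genes summed to 148 and 143 in WT and to 90.2 and 106 in CD274-null, mostly Vcam1 and Adgre1. The lower sums came from Vcam1, with 117, 92.3, 53.7 and 59.85 FPKM, whereas Adgre1, with 22.2, 47.1, 28.4 and 42.6, had overlapping groups. The 7 mast cell and basophil genes summed to 19.8, 39.2, 48.1 and 59.5. The part of these cells in the levels of the members was not tested.

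None of the listed genes of antibody making, secretion and transport passed the adjusted threshold. Over 7 lists of the antibody pathway, 85 genes were listed and 51 tested. By limma with Benjamini-Hochberg adjustment 0 were called, where 0.0756% of all tested genes were called higher, so few calls could fall among 51 genes. The voom fit of limma on recovered reads called 0 of them and 0 of all genes. At an unadjusted p under 0.05, 5 were higher and 1 lower, where 8.04% of all tested genes were higher and 5.7% lower. Of 22 genes of antibody folding and secretion, 21 were tested and none was a candidate, with a median log2 difference of 0.14 beside 0.01 over all genes. At an unadjusted p under 0.05 (limma), 2 of the 21 were higher and 0 lower, beside the shares of all genes just given. These were Pdia4, with 39.75, 32.98, 68.55 and 54.6 FPKM, and Dnajb9, with 37.13, 16.38, 38.8 and 89.01. Hspa5 (BiP), the chaperone that holds unpaired heavy chains, had 698, 650, 647 and 1621 FPKM, the highest in CD274-null 2. Hsp90b1 (GRP94), a chaperone of the same compartment, had 324, 328, 331 and 358 FPKM. Sec11c, a subunit of the signal peptidase, had 185, 216, 223 and 203, and Ssr4, of the translocon, 191, 232, 209 and 158.

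Of 6 regulators of plasma cells, 2 were tested, Xbp1 and Ell2, and neither was called. Xbp1, the factor of the secretory programme, had 177, 66.8, 133 and 106 FPKM, with overlapping groups, and Ell2, which favours the secreted form of heavy chain transcripts, 1.28, 1.13, 1.73 and 1.07. Of those under the filter, Zbtb20 had 16, 19, 4 and 9 reads, and 3 had more reads in both libraries labelled CD274-null: Irf4 as given above, Prdm1 (BLIMP1) with 11, 2, 18 and 23, and Pou2af1 with 1, 0, 6 and 4. Of 9 plasma cell surface and survival genes, 5 were tested and none was a candidate. Cxcr4, which keeps plasma cells and progenitors in the marrow, had 130.5, 176.5, 211 and 290.2 FPKM (log2 difference 0.70, limma, Benjamini-Hochberg adjusted p = 0.349). Mcl1, Itga4 and Tnfrsf13b (TACI) had log2 differences of -0.14, -0.12 and -0.54. Under the filter, Slamf7 had 3, 2, 13 and 12 reads and Cd28 1, 4, 6 and 60, more in both libraries labelled CD274-null.

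Genes of the earlier steps of the antibody lineage were low or uncalled. Of 20 B cell identity genes, 6 were tested and none was a candidate. Cd37, a tetraspanin of many leukocytes, had 218, 204, 286 and 297 FPKM, Pou2f2 (OCT2) 4.25, 9.09, 8.19 and 9.14, and Btla 4.68, 8.05, 8.21 and 3.85. Of 8 genes of recombination and the surrogate light chain, 1 was tested. That gene, Il7r, had 22, 10, 30 and 17 reads, and Igll1, Vpreb1 and Vpreb3 had at most 5 reads in any library. Of 10 genes of class switching, most of them DNA repair genes that dividing cells use in general, 9 were tested with 0 candidates. Msh6, of mismatch repair, had a log2 difference of 0.68, and Xrcc6 (Ku70) and Mad2l2 had differences of 0.25 and -0.17.

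Of 10 genes that carry or bind antibody, 7 were tested and 1 was a candidate. Fcgr4, a receptor for IgG2 on myeloid cells, had 27.3 FPKM in WT 1, 28.1 in WT 2, 14.8 in CD274-null 1 and 10.4 in CD274-null 2. Both libraries labelled CD274-null were lower, with a log2 difference of -1.12 (standard error 0.26, limma, Benjamini-Hochberg adjusted p = 0.255), where 1.24% of all tested genes were lower by the candidate rule. Pigr, which carries J chain-bound antibody across epithelia, was listed at 0 in all 4 libraries.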

How the data were processed

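RNA of LICs, sorted according to the labels, was measured in 4 libraries, 2 per genotype by label. Per the paper's methods and the submitters' processing notes, TruSeq v2 libraries were sequenced and reads aligned to GRCm38 (CASAVA 1.8.2 and TopHat2 2.0.12 are named), and the authors deposited 1 FPKM per gene and library, without log transformation. The program, gene lengths and strand setting behind FPKM are not given in the sources used here, so reads from a gene and its antisense partner cannot be told apart. Genes were named from RefSeq (25275 of 27179 with a symbol).

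FPKM times gene length times mapped reads is a whole number, and whole reads were recovered for 100% of the 19168 genes above 0 (tolerance 1e-05 reads), in lowest terms. They summed to 98.3 to 98.4% of the mapped reads that the values imply. A factor common to all 4 values of a gene is lost, so these reads can be too low. For the members they were raised to the smallest multiple whose length reached 90% of the shorter of the gene's span and its shortest transcript, which changed Ighg1 and Ighg2b. Intervals are exact (Clopper-Pearson or Poisson, scipy 1.17.1, Python 3.11.15), cover counting error only, and the floor is 3 reads.

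Genes were compared in R 4.3.3 by limma 3.58.1 (lmFit and trended eBayes, Benjamini-Hochberg adjustment) on log2(FPKM + 0.5), a scale that understates changes of low genes, for a mean FPKM of at least 0.5. Tested on simulated data for 13107 genes, the fit called 98% of genes changed 4-fold, 100% of those changed 16-fold and 0.194% of unchanged ones. The simulation gave every gene the same relative spread beyond counting error, and the spread of the real libraries was not used. These shares are therefore no measure of how many changed genes the fit would call in the real libraries. Shares and ratios were described without a test. Alternatives were other pseudocounts, filters and scalings, eBayes without trend, the replicate number as a block, voom on recovered reads, reads instead of FPKM, and leaving out each library. The text names the members, and of each list the candidates or else up to 4 genes with the highest mean FPKM, marker genes, Cd274, and the 5 genes nearest to Jchain, to the members' median and, chosen after seeing the data, to Ighm. The E-box factors beside Tcf4, and Ighe, Iglc3, Pigr, Slamf7, Cd28, Pdia4 and Dnajb9, were named after their values were seen. Some genes that these rules name are not reported here. The members and lists were chosen with earlier results of these data known.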

Additional observations from a re-analysis of the deposited data

How the results depend on the processing

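No tested member's log2 difference changed sign under the alternatives run, but that of Ighg1, 1.34, was 0 without CD274-null 2. With 2 libraries per group, the count of genes called at an adjusted p under 0.05 in the limma fit, 10, moved to 6 with eBayes without trend, 5 with equal medians or quantile normalization, 4 at a mean FPKM of at least 5, 1 with no filter, 0 with voom on recovered reads and 0 to 13 when each library was left out. The members called, 2, moved to 1 under equal medians, quantile normalization, the higher filter or no filter, to 0 with voom and to 0 to 2 with a library left out; the call of Jchain was lost in 9 of 13 alternatives and that of Igkc in 3. With the replicate number as a block, 21 genes and 4 members were called, but same-numbered libraries did not deviate together (correlation -0.0151 over 2 pairs), so the numbers do not pair them. The 480 candidates were 147 to 634 with a library left out. The members' median log2 difference of 3.30 was 4.09 at the higher filter, 4.50 with a pseudocount of 0.1, 2.71 with 1 and 4.53 with voom. Candidates among the listed pathway genes, 1, were 2 with eBayes without trend, 3 with no filter and 0 to 2 with a library left out. The mean kappa share in CD274-null, 97.1%, was 95.6% with Iglc2 and Iglc3 added. J chain per heavy chain, 0.0312 in WT and 0.0550 in CD274-null by FPKM, was 0.0453 and 0.0871 by reads, which are not scaled by length. At a mean FPKM of at least 5, 2 of the 5 nearest genes to Jchain and 3 of the 5 nearest to Ighm were the same. The cause of these shifts was not tested. The WT values rest on few reads, 9 and 11 of Jchain and 32 and 26 of Igkc, although the WT libraries were the deeper ones.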
